A study of Phaffia rhodozyma with 6 samples.

Results

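The genes described here are those that supply the amino acids of *Phaffia rhodozyma* (*Xanthophyllomyces dendrorhous*), a red basidiomycete yeast grown for its carotenoid astaxanthin. They were taken from the annotation column of the deposited expression table. A gene was a member when that column placed it in at least 1 of 8 KEGG maps, which cover arginine, alanine with aspartate and glutamate, glycine with serine and threonine, cysteine with methionine, the branched-chain amino acids, lysine, histidine, and the aromatic amino acids. Of the 148 genes in these maps, 30 were left out because they also stand in maps of central carbon, nucleotide, lipid or tRNA charging metabolism, and 1 more, described as a spermidine synthase, was left out by its gene number. This left 117 of the 6249 genes of the table. By their description and enzyme number, 72 of them carry out a step that makes an amino acid, and 36 act in breakdown, salvage, oxidation or branch routes that the maps also hold. The other 9 were classed as unclear, because their description names a protein of another kind than their enzyme number does. They were still placed in a role by that number. A few of the 72 and 36 genes also carry a description and a number that name different enzymes. KEGG maps are drawn for many organisms at once, so membership is an assignment by sequence and not a measured activity.

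RNA was sequenced from strain AS2.1557 grown in YPD, a rich medium that itself supplies peptides and amino acids. The S group (S1 to S3) had received salicylic acid (SA), a plant hormone, at 0.5 mg/L, and the C group (C1 to C3) had received a similar amount of water, with 0 mg/L SA. Each group had 3 libraries, and expression was given as FPKM, sequenced fragments scaled to transcript length and to the size of the library. The labels do not tell whether a group is made of separate cultures. The p-values therefore rest on variation from library to library alone, and this may be technical.

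Amino acid synthesis begins with ammonium, which glutamate dehydrogenase and glutamine synthetase fix into glutamate and glutamine. Aminotransferases then pass the amino group to carbon skeletons drawn from glycolysis, the tricarboxylic acid cycle and the pentose phosphate pathway. Fungi make lysine through alpha-aminoadipate, and the first steps of several branches are held back by their end products. In *Saccharomyces cerevisiae* the kinase Gcn2 and the activator Gcn4 raise transcription across many of these branches together when amino acids run short.

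The members moved in both directions after SA. Of the 116 members tested (limma on log2(FPKM + 0.1), Benjamini-Hochberg adjustment over 6113 genes, adjusted p under 0.05), 29 rose and 10 fell. Over all tested genes 19.9% rose and 3.03% fell, and the members' share called higher was 25%, against 8.62% called lower. The median log2 fold change was 0.23 over the members and 0.21 over all tested genes, so the members sat close to the shift of the whole table. In 50 members every S library stood above every C library, and in 16 every S library stood below, while over all tested genes these shares were 36.1% and 7.48%. The remaining member, gene 5749, a prephenate dehydratase for phenylalanine synthesis, reached at most 0.272 FPKM in any library and was not tested.

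**Figure D1:**
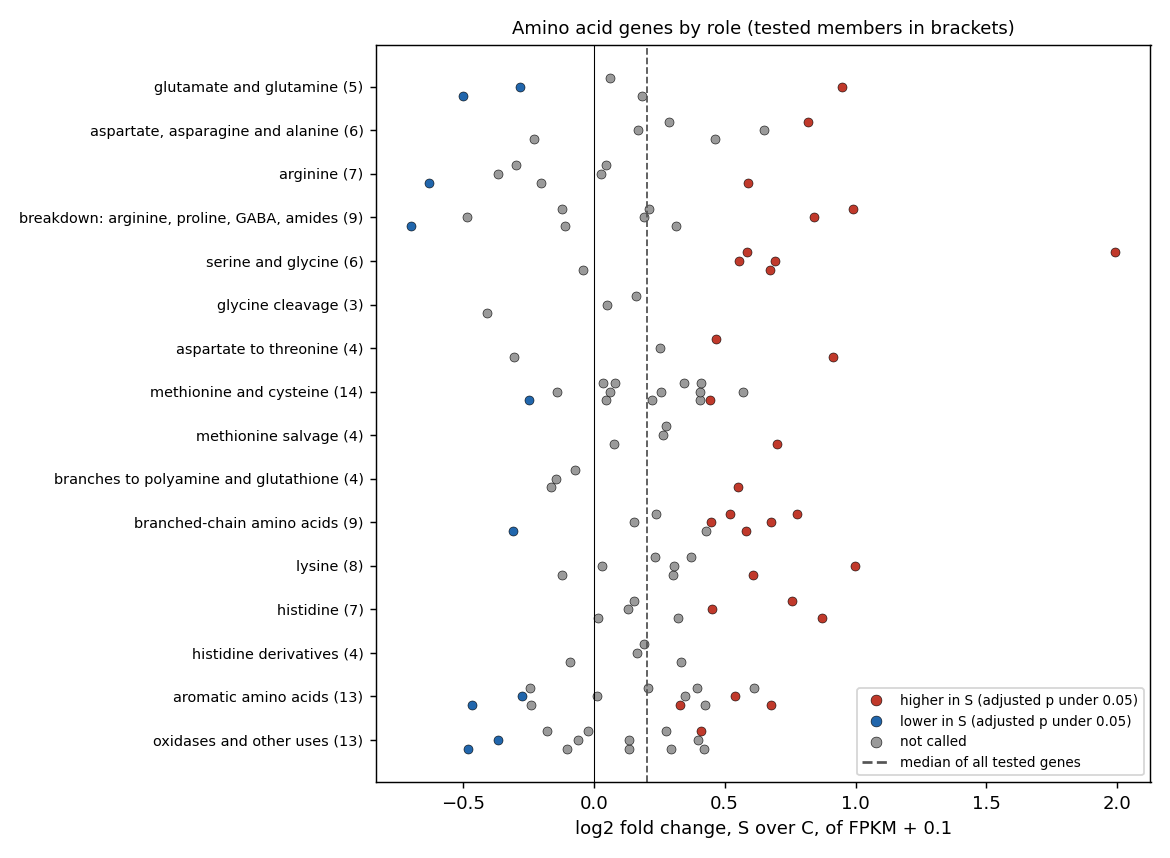
Log2 fold change of the 116 tested members (S over C, FPKM + 0.1), in rows by role, with members that rose in red, members that fell in blue and the others in grey. The dashed line is the median of all tested genes, 0.21, and the serine and glycine row holds 5 red points of 6.

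The shift of the whole table weighs on these counts. The median tested gene had 29.2, 31.3 and 32.0 FPKM in the S group, against 26.3, 26.4 and 23.6 FPKM in the C group, while the members together held 1.55% to 1.68% of all FPKM in the 6 libraries. When each library was centred on its median, 6 members were called higher and 25 lower, beside 7.26% and 15.3% of all tested genes. Under quantile normalization 5 were called higher and 16 lower, beside 6.61% and 8.47%. Single libraries mattered as well: 10 members were called higher without S2, 11 without S3 and 17 without C2. Over all tested genes 501, 553 and 720 were called higher in these fits, against 1218 with all libraries. Of the 29 members, 22 had their highest S value in S3. Among all 117 members 58 had their highest value in S3, and the share over all genes was not counted. The calls that held under all 3 scalings numbered 10, of which 3 were higher and 7 lower, and 6 of these also held with each library left out.

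At the entry of nitrogen, the NADP-dependent glutamate dehydrogenase rose and the 2 abundant glutamine synthetases fell. Gene 11397 encodes the NADP-dependent glutamate dehydrogenase, which builds glutamate from ammonium and 2-oxoglutarate, and lies at bases 2161523 to 2163393 of contig LN483332.1. It had 63.7, 57.1 and 50.6 FPKM in the S group, against 30.6, 30.2 and 27.7 FPKM in the C group. The lowest S value stood well above the highest C value, and the gene rose (log2 fold change 0.95, SE 0.12, adjusted p = 0.00188). Gene 7573, a glutamine synthetase at bases 1191573 to 1193742 of contig LN483167.1, was the most abundant of all members at 1136, 1019 and 1025 FPKM in the S group, against 1519, 1498 and 1473 FPKM in the C group, and it fell (log2 fold change -0.50, SE 0.07, adjusted p = 0.00256). Both calls held under every scaling and with any library left out, with adjusted p no higher than 0.0129 among the fits that left out 1 library. A further glutamine synthetase, gene 6049, had 851, 722 and 703 FPKM in the S group, against 908, 918 and 929 FPKM in the C group, and also fell (log2 fold change -0.28, SE 0.09, adjusted p = 0.0404). Its call was lost under quantile normalization (adjusted p = 0.125) and without S2, S3, C1, C2 or C3 (adjusted p up to 0.143). The third glutamine synthetase annotation among the members, gene 11121, was far less abundant, at 14.8 to 23.0 FPKM over the 6 libraries. The NAD-dependent glutamate dehydrogenase, gene 7877, which works mainly in glutamate breakdown, stood at 81.4 to 95.7 FPKM. Neither was called (adjusted p = 0.442 and 0.69). The paper lists a further gene described as a glutamine synthetase as higher with SA, which is not among the genes given here.

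The opposite moves of these enzymes can be read within each library. The FPKM of gene 11397 divided by that of gene 7573 was 0.0561, 0.0560 and 0.0493 in the S group, against 0.0202, 0.0202 and 0.0188 in the C group. The groups did not overlap, and the mean log2 ratio differed by 1.45 (SE 0.07), a 2.73-fold higher ratio with SA. A two-sided exact permutation test gave p = 0.1, which is the smallest p that 3 libraries against 3 allow, and the pair was chosen after its values were seen. Under quantile normalization the ratio was 2.14-fold higher.

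**Figure D2:**
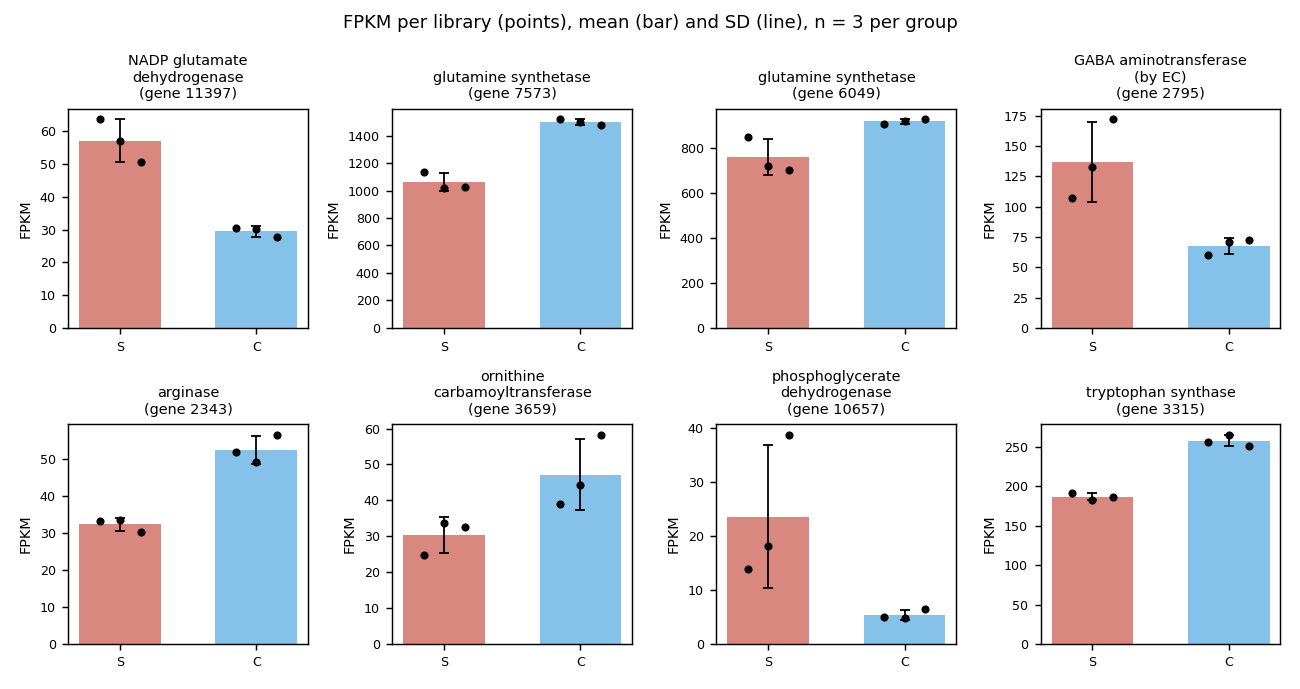
FPKM of 8 members in each library (points), with the mean (bar) and SD (line) of the S group at left and the C group at right. NADP glutamate dehydrogenase (gene 11397) averaged 57.1 FPKM in S and 29.5 FPKM in C, and glutamine synthetase (gene 7573) 1059.9 FPKM in S and 1497 FPKM in C.

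Aspartate, asparagine and alanine take their amino group from glutamate, aspartate and alanine by transamination and asparagine from the amide of glutamine. One of 3 aspartate aminotransferases, gene 1591, had 12.6, 12.4 and 13.3 FPKM in the S group, against 6.25, 7.43 and 8.01 FPKM in the C group, and rose (log2 fold change 0.82, SE 0.16, adjusted p = 0.00835). It kept its call when libraries were centred (adjusted p = 0.0363) and with any library left out, and lost it under quantile normalization (adjusted p = 0.0888). It was the least abundant of the 3. The most abundant, gene 6023, had 242, 249 and 255 FPKM in the S group, against 304, 295 and 273 FPKM in the C group, with every S library below every C library, and was not called (log2 fold change -0.23, SE 0.08, adjusted p = 0.0748). Asparagine synthase, gene 11825, had 42.8, 45.1 and 55.3 FPKM in the S group, against 20.4, 36.7 and 36.6 FPKM in the C group, and did not pass either (log2 fold change 0.65, SE 0.22, adjusted p = 0.0552), with C1 well below C2 and C3.

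The genes of arginine synthesis did not move together. The pathway acetylates glutamate, turns it into ornithine and then, through citrulline, into arginine. Gene 3659, ornithine carbamoyltransferase, which makes citrulline, had 24.6, 33.7 and 32.6 FPKM in the S group, against 39.0, 44.1 and 58.2 FPKM in the C group, and fell (log2 fold change -0.63, SE 0.18, adjusted p = 0.0302). This call held under centring and quantile normalization (adjusted p = 0.0146 and 0.0206), but was lost without S1, S2, S3, C2 or C3 (adjusted p up to 0.0907). Gene 6643, acetylornithine aminotransferase, an earlier step, had 18.7, 20.5 and 22.1 FPKM in the S group, against 12.3, 13.3 and 14.99 FPKM in the C group, and rose (log2 fold change 0.59, SE 0.14, adjusted p = 0.0182). Its call was lost under both other scalings (adjusted p = 0.121 and 0.227) and without S2, S3 or C2 (up to 0.0767). Argininosuccinate synthetase, gene 9937, which joins citrulline to aspartate, had 37.2, 33.3 and 32.9 FPKM in the S group, against 47.9, 45.05 and 40.4 FPKM in the C group (log2 fold change -0.36, SE 0.12, adjusted p = 0.054). Acetylglutamate kinase, gene 6447, the second step, had 73.9, 67.9 and 67.0 FPKM in the S group, against 84.4, 81.8 and 74.0 FPKM in the C group (log2 fold change -0.20, SE 0.10, adjusted p = 0.186). Glutamate N-acetyltransferase, gene 6353, had 22.4, 22.7 and 21.5 FPKM in the S group, against 30.8, 29.5 and 22.4 FPKM in the C group (log2 fold change -0.30, SE 0.15, adjusted p = 0.171). These 3 did not pass, although all 3 were called lower once libraries were centred or quantile-normalized. The median log2 fold change of the 7 synthesis genes was -0.20, and -0.48 after centring.

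Arginine is broken down by arginase, which releases urea and ornithine. Gene 2343, arginase, at bases 999634 to 1001708 of contig LN483142.1, had 33.1, 33.6 and 30.3 FPKM in the S group, against 52.0, 49.0 and 56.5 FPKM in the C group. The S values lay close together and well below the C values, and the gene fell (log2 fold change -0.70, SE 0.12, adjusted p = 0.00417), under every scaling and with any library left out (adjusted p no higher than 0.0206). Carbamoyl-phosphate synthase, which feeds both arginine and pyrimidine synthesis, was left out of the members because it shares a nucleotide map. Of its 3 annotated genes, gene 2621 (log2 fold change 0.91, SE 0.17, adjusted p = 0.0065) and gene 4425 (log2 fold change 0.57, SE 0.13, adjusted p = 0.0155) were called higher. The third, gene 11831, was not (log2 fold change 0.52, SE 0.18, adjusted p = 0.0585). After centring gene 2621 kept its call (adjusted p = 0.0487) and gene 4425 did not (0.155). Gene 2621 also carries the number of aspartate carbamoyltransferase (EC 2.1.3.2), an enzyme of pyrimidine synthesis, so its rise is not particular to arginine supply. Of all 31 genes left out of the members, 4 (12.9%) were called higher and none lower, beside 19.9% and 3.03% of all tested genes.

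The GABA shunt takes glutamate through 4-aminobutyrate (GABA) to succinate. Gene 2795, described as an acetylornithine aminotransferase but numbered as a GABA aminotransferase, at bases 1635904 to 1638450 of contig LN483142.1, had 107, 133 and 172 FPKM in the S group, against 60.4, 71.2 and 72.2 FPKM in the C group. The groups did not overlap, although S3 stood well above S1, and the gene rose (log2 fold change 0.99, SE 0.16, adjusted p = 0.00399) under every scaling and with any library left out (adjusted p no higher than 0.0195). Gene 11111, which both its description and its number call GABA aminotransferase, had 20.5, 23.4 and 19.1 FPKM in the S group, against 25.6, 22.2 and 20.3 FPKM in the C group, and was not called (log2 fold change -0.11, SE 0.15, adjusted p = 0.613). Glutamate decarboxylase, gene 12479, which makes GABA, had 117, 106 and 111 FPKM in the S group, against 130.3, 120.0 and 113 FPKM in the C group, and was not called (log2 fold change -0.12, SE 0.10, adjusted p = 0.393). The last step had 2 genes. Gene 9841, a succinate-semialdehyde dehydrogenase by number, had only 4.67, 5.50 and 3.15 FPKM in the S group, against 2.78, 2.24 and 2.15 FPKM in the C group, and rose (log2 fold change 0.84, SE 0.26, adjusted p = 0.0413), a call lost under both other scalings (adjusted p = 0.125 and 0.242) and without S1, S2, C2 or C3 (up to 0.181). Its more abundant counterpart, gene 2903, stood between 41.3 and 49.3 FPKM in the S group, against 32.1 to 39.0 FPKM in the C group, and was not called (adjusted p = 0.0979).

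Serine and glycine synthesis was the group with most of its genes called, 5 of 6 higher and none lower. Over all tested genes the shares were 19.9% and 3.03%. Serine is made from the glycolytic intermediate 3-phosphoglycerate, and glycine from serine or threonine. The first enzyme, phosphoglycerate dehydrogenase, had 2 genes and both rose. Gene 10657, at bases 970800 to 972674 of contig LN483332.1, had 13.9, 18.1 and 38.7 FPKM in the S group, against 4.89, 4.76 and 6.37 FPKM in the C group. Its change was the largest of any member called, 3.98-fold on the log scale (log2 fold change 1.99, SE 0.32, adjusted p = 0.00376), and its S values were widely scattered, with S3 more than S1 and S2 together. It held under every scaling and with any library left out (adjusted p no higher than 0.0216). Gene 9255, the better expressed of the pair in 5 of 6 libraries, had 23.6, 19.7 and 21.7 FPKM in the S group, against 13.1, 13.9 and 13.0 FPKM in the C group, and rose (log2 fold change 0.69, SE 0.14, adjusted p = 0.00835). Its call held on centring (adjusted p = 0.0454) and with any library left out, and was lost under quantile normalization (0.0972).

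Phosphoserine aminotransferase, gene 5103, the next step, had 39.7, 43.6 and 49.1 FPKM in the S group, against 28.3, 32.7 and 27.2 FPKM in the C group, and rose (log2 fold change 0.59, SE 0.13, adjusted p = 0.0131). Glycine hydroxymethyltransferase, gene 11855, which splits serine into glycine and a folate-bound carbon, was the most abundant of the group at 311, 324 and 416 FPKM in the S group, against 182, 252 and 286 FPKM in the C group (log2 fold change 0.56, SE 0.17, adjusted p = 0.0372). Threonine aldolase, gene 4921, which frees glycine from threonine, had 71.0, 92.2 and 80.1 FPKM in the S group, against 39.1, 52.6 and 62.8 FPKM in the C group, and rose (log2 fold change 0.67, SE 0.17, adjusted p = 0.0218). In all 3 every S library stood above every C library. They lost their calls under centring (adjusted p = 0.0595, 0.305 and 0.161 for genes 5103, 11855 and 4921) and quantile normalization (0.0659, 0.0634 and 0.0955), and without S2 or S3, gene 11855 also without C1 or C2 (up to 0.127). The 6 genes had a median log2 fold change of 0.63, and 0.35 after centring. The glycine cleavage system, which runs in the breakdown direction, had 3 members tested and none was called, with log2 fold changes of -0.41 to 0.16.

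Aspartate is also the start of threonine and methionine. Homoserine kinase, gene 7585, on the threonine branch, had 20.4, 17.4 and 27.4 FPKM in the S group, against 9.31, 12.8 and 12.1 FPKM in the C group, and rose (log2 fold change 0.91, SE 0.20, adjusted p = 0.0114), with every leave-one-out fit under the threshold (adjusted p up to 0.0425) and the call lost under quantile normalization (adjusted p = 0.082). Aspartate-semialdehyde dehydrogenase, gene 4379, the second step, had 70.8, 70.7 and 88.6 FPKM in the S group, against 50.9, 59.2 and 55.6 FPKM in the C group, and rose (log2 fold change 0.47, SE 0.12, adjusted p = 0.0253). The call of gene 4379 was lost under both other scalings (adjusted p = 0.252 and 0.146) and without S2, S3 or C2 (up to 0.11). Aspartate kinase, gene 2987, the first step, which is feedback-controlled in *S. cerevisiae*, had 80.6, 80.5 and 75.7 FPKM in the S group, against 83.1, 105 and 106 FPKM in the C group, with S below C in every library, and did not pass (log2 fold change -0.31, SE 0.12, adjusted p = 0.0871). It was called lower after centring and after quantile normalization.

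The genes placed with cysteine and methionine, which hold the use of methionine as well as synthesis, had few calls. Of these 14 genes 1 rose and 1 fell, beside 19.9% and 3.03% of all tested genes. The gene that rose, methionine adenosyltransferase, uses methionine and does not make it. The median log2 fold change of the 14 was 0.24. Gene 1263, methionine synthase, which methylates homocysteine without cobalamin, was among the 3 most abundant members at 637, 554.6 and 602 FPKM in the S group, against 691, 695 and 739 FPKM in the C group, and fell (log2 fold change -0.25, SE 0.08, adjusted p = 0.0494). This call was close to the threshold and was lost under quantile normalization (adjusted p = 0.112) and without S2, S3, C1, C2 or C3 (up to 0.203). The gene that uses methionine next, methionine adenosyltransferase (gene 10389), had 366, 355 and 318 FPKM in the S group, against 200.2, 280.1 and 291 FPKM in the C group, and rose (log2 fold change 0.45, SE 0.14, adjusted p = 0.0414). It too lost its call under both other scalings (adjusted p = 0.498 and 0.0689) and without any of S1, S2, S3, C1 and C2 (up to 0.115). Methylthioadenosine phosphorylase, gene 10085, opens the salvage route that returns the sulfur of polyamine synthesis to methionine. It had 27.2, 35.6 and 36.6 FPKM in the S group, against 15.5, 24.2 and 22.0 FPKM in the C group, and rose (log2 fold change 0.70, SE 0.19, adjusted p = 0.0265), a call lost under both other scalings (adjusted p = 0.127 and 0.14) and without S2 or S3 (up to 0.0949). The 3 other salvage genes were not called.

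Glutathione is made from glutamate, cysteine and glycine, and its first step, gamma-glutamylcysteine synthetase, is in the cysteine map. Gene 3583 carries the number of this enzyme, but its description is that of a GATA transcription factor, so what it encodes is unclear. It had 97.9, 108 and 121 FPKM in the S group, against 81.8, 74.3 and 67.0 FPKM in the C group, and rose (log2 fold change 0.55, SE 0.12, adjusted p = 0.0115). The call was lost on centring (adjusted p = 0.0641) and without S3 (0.0533). Gene 5035, for which description and number both give the synthetase, had 66.6, 59.4 and 66.2 FPKM in the S group, against 75.1, 72.9 and 64.2 FPKM in the C group, and was not called (log2 fold change -0.14, SE 0.11, adjusted p = 0.378). Of the other 8 unclear members none was called.

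The branched-chain pathway, which makes valine, leucine and isoleucine along shared steps, had 5 of its 9 genes called higher and 1 lower. Over all tested genes the shares were 19.9% and 3.03%. The median log2 fold change of the pathway was 0.45, and 0.17 after centring. Ketol-acid reductoisomerase, gene 1291, the shared second step, had 376, 419 and 533 FPKM in the S group, against 229.9, 284 and 314 FPKM in the C group, and rose (log2 fold change 0.68, SE 0.15, adjusted p = 0.0114). Gene 5851, 3-isopropylmalate dehydrogenase of the leucine branch, had 38.2, 41.2 and 56.4 FPKM in the S group, against 23.9, 25.3 and 29.2 FPKM in the C group, and rose (log2 fold change 0.78, SE 0.16, adjusted p = 0.0104). Both kept their calls with any library left out and lost them on centring (adjusted p = 0.105 and 0.0544), gene 5851 also under quantile normalization (0.0662). Acetolactate synthase, gene 9317, at the shared first step, had 37.0, 39.2 and 49.5 FPKM in the S group, against 25.8, 29.1 and 28.5 FPKM in the C group, and rose (log2 fold change 0.58, SE 0.14, adjusted p = 0.0172).

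Threonine ammonia-lyase, gene 11849, which opens the isoleucine branch, had 25.8, 23.4 and 29.5 FPKM in the S group, against 18.1, 18.8 and 17.7 FPKM in the C group, and rose (log2 fold change 0.52, SE 0.14, adjusted p = 0.0238). Dihydroxy-acid dehydratase, gene 3061, the third shared step, had 52.8, 49.3 and 57.5 FPKM in the S group, against 33.2, 39.1 and 45.3 FPKM in the C group, and rose (log2 fold change 0.45, SE 0.14, adjusted p = 0.0406). The calls of genes 9317, 11849 and 3061 were lost under both other scalings (adjusted p from 0.108 to 0.43) and in several fits that left out 1 library, S2 and S3 among them for each (up to 0.143). The last step, the aminotransferase that works on all 3 amino acids, went the other way. Gene 4905 had 119, 105 and 103 FPKM in the S group, against 141, 136 and 128 FPKM in the C group, and fell (log2 fold change -0.31, SE 0.10, adjusted p = 0.0478), under all scalings but not without S2, S3, C1 or C2 (up to 0.171). The second annotated branched-chain aminotransferase, gene 11579, had 27.1, 28.3 and 34.4 FPKM in the S group, against 23.4, 22.9 and 20.1 FPKM in the C group, and was not called (log2 fold change 0.43, SE 0.14, adjusted p = 0.0513).

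The most abundant gene of the pathway was not among those called. Gene 4803, a second acetolactate synthase, had 11.9 to 19.0 times the FPKM of gene 9317 over the 6 libraries. It had 566, 552 and 590.4 FPKM in the S group, against 481, 514 and 542 FPKM in the C group (log2 fold change 0.15, SE 0.08, adjusted p = 0.181). Gene 11895, 3-isopropylmalate dehydratase of the leucine branch, had 388, 408 and 502 FPKM in the S group, against 354, 363 and 377 FPKM in the C group (log2 fold change 0.24, SE 0.10, adjusted p = 0.121). In both the S libraries all stood above the C libraries, and both fold changes turned slightly negative when libraries were centred (-0.12 and -0.04). The first enzyme of the leucine branch, 2-isopropylmalate synthase (gene 12497), was left out of the members because it shares a central map. It was not called (log2 fold change 0.19, SE 0.10, adjusted p = 0.187).

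**Figure D3:**
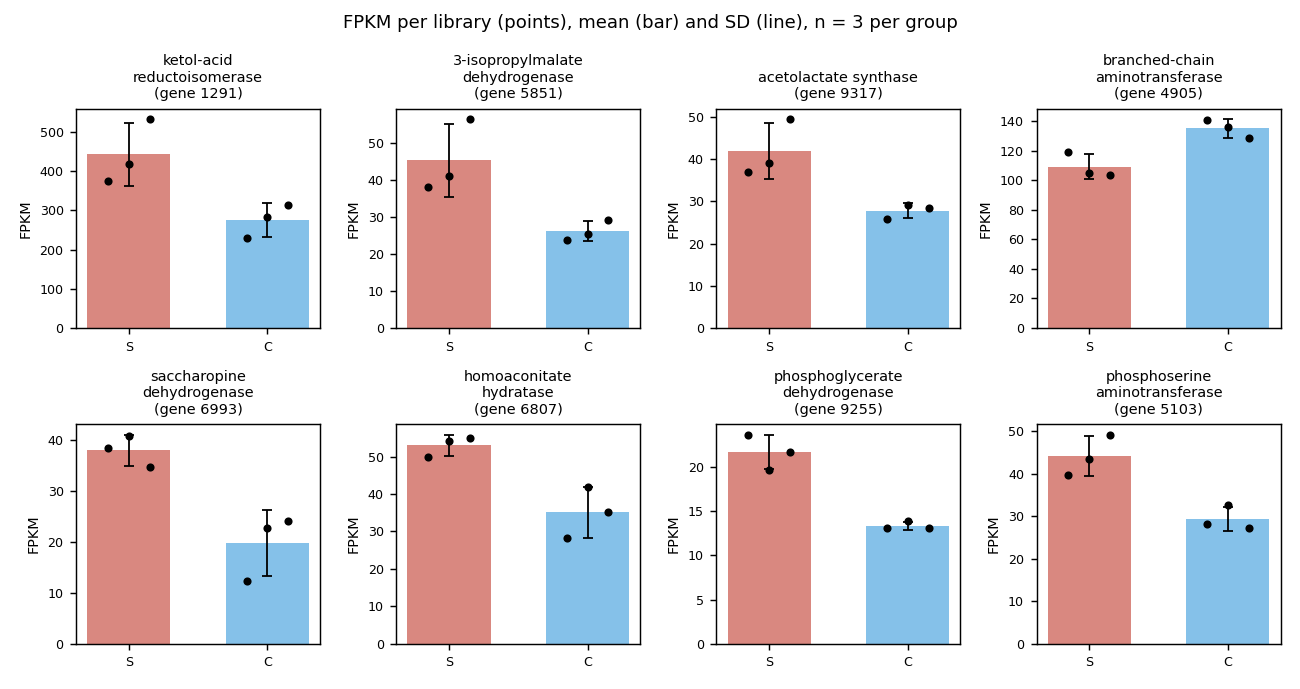
FPKM of 8 members of the branched-chain, lysine and serine routes in each library (points), with the mean (bar) and SD (line) of the S group at left and the C group at right. Ketol-acid reductoisomerase (gene 1291) averaged 443 FPKM in S and 276 FPKM in C, whereas branched-chain aminotransferase (gene 4905) averaged 109 FPKM in S and 135 FPKM in C.

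Lysine synthesis had 2 of 8 genes called higher and none lower, beside 19.9% and 3.03% of all tested genes. The 8 include the unclear genes 2643 and 4065, which were placed there by enzyme number only. Homoaconitate hydratase, gene 6807, which acts early in the alpha-aminoadipate route, had 49.9, 54.1 and 55.1 FPKM in the S group, against 28.3, 42.0 and 35.2 FPKM in the C group, and rose (log2 fold change 0.61, SE 0.15, adjusted p = 0.0185). Gene 6993, a saccharopine dehydrogenase of the last steps, had 38.5, 40.8 and 34.7 FPKM in the S group, against 12.3, 22.8 and 24.1 FPKM in the C group, and rose (log2 fold change 0.997, SE 0.23, adjusted p = 0.0145). C1 was the lowest of the C libraries for both. The calls were lost without S2, for gene 6807 also without S3 (up to 0.0688), and under both other scalings (adjusted p from 0.0729 to 0.128). Gene 11297, also described as a saccharopine dehydrogenase but with another enzyme number than gene 6993, varied between 50.9 and 55.5 FPKM over all 6 libraries. It was not called (adjusted p = 0.841). Gene 2051, the spermidine synthase by description that was left out of the members, carries the same enzyme number as gene 11297. It was called higher (log2 fold change 0.72, SE 0.18, adjusted p = 0.0207), but not after centring (adjusted p = 0.147) or quantile normalization (0.0847). Homocitrate synthase, gene 11857, which opens the route, was left out of the members because it shares a central map. It averaged 369 FPKM in the S group and 368 FPKM in the C group and was not called (log2 fold change 0.0095, SE 0.10, adjusted p = 0.951).

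Histidine synthesis starts from phosphoribosyl pyrophosphate and had 3 of 7 genes called higher and none lower, beside 19.9% and 3.03% of all tested genes. Its first enzyme, ATP phosphoribosyltransferase (gene 3783), had 17.2, 21.7 and 16.2 FPKM in the S group, against 6.71, 11.8 and 12.2 FPKM in the C group, and rose (log2 fold change 0.87, SE 0.23, adjusted p = 0.026). The trifunctional protein, gene 1535, which covers early steps and the final oxidation to histidine, had 44.0, 41.8 and 48.6 FPKM in the S group, against 30.8, 34.7 and 32.6 FPKM in the C group, and rose (log2 fold change 0.45, SE 0.12, adjusted p = 0.0238). The ribotide isomerase, gene 3265, had 9.12, 10.5 and 12.9 FPKM in the S group, against 9.08, 5.16 and 5.35 FPKM in the C group, and rose (log2 fold change 0.76, SE 0.24, adjusted p = 0.0466), with S1 only just above C1. None of the 3 was called under centring or quantile normalization (adjusted p from 0.114 to 0.252), and each was lost without S2, genes 1535 and 3265 also without further libraries (up to 0.154). Gene 5275, imidazoleglycerol-phosphate dehydratase, the most abundant of the histidine map, had 73.4, 75.5 and 76.5 FPKM in the S group, against 63.6, 71.9 and 67.3 FPKM in the C group, and was not called (log2 fold change 0.15, SE 0.10, adjusted p = 0.292), and its sign turned under centring (-0.12) and quantile normalization (-0.02). The group median of 0.32 was 0.05 after centring and -0.02 after quantile normalization.

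The aromatic branch begins with DAHP synthase, runs through chorismate and splits towards tryptophan, phenylalanine and tyrosine. Of 13 genes tested 3 rose and 2 fell, and the share that rose, 23.1%, was near the 19.9% of all tested genes, of which 3.03% fell. Tryptophan synthase, gene 3315, the last step to tryptophan, at bases 2481208 to 2484012 of contig LN483142.1, had 191, 183 and 187 FPKM in the S group, against 257, 265 and 251 FPKM in the C group. Replicates were close in both groups, and the gene fell (log2 fold change -0.46, SE 0.08, adjusted p = 0.0053) under every scaling and with any library left out (adjusted p no higher than 0.0295). Earlier enzymes of the same branch were mixed. An anthranilate synthase component, gene 6135, had 10.2, 13.9 and 16.6 FPKM in the S group, against 9.11, 8.35 and 7.5 FPKM in the C group. It rose (log2 fold change 0.68, SE 0.20, adjusted p = 0.0354), a call lost under both other scalings (adjusted p = 0.1 and 0.179) and without S2, S3, C2 or C3 (up to 0.133). Anthranilate synthase, gene 12465, was not called (log2 fold change 0.40, SE 0.14, adjusted p = 0.0626). Anthranilate phosphoribosyltransferase, gene 8139, was not called either (log2 fold change -0.24, SE 0.17, adjusted p = 0.321). It was called lower after centring (adjusted p = 0.044) and under quantile normalization (0.043).

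Chorismate synthase, gene 8053, the end of the common trunk, had 96.8, 80.1 and 103 FPKM in the S group, against 60.9, 70.6 and 60.3 FPKM in the C group, and rose (log2 fold change 0.54, SE 0.13, adjusted p = 0.0148). The DAHP synthase of gene 1599 had 165, 159.6 and 179 FPKM in the S group, against 125, 145 and 132 FPKM in the C group, and rose (log2 fold change 0.33, SE 0.10, adjusted p = 0.0363). Gene 8053 lost its call without S3 (adjusted p = 0.0656), gene 1599 without any library but C3 (up to 0.143), and both under the other scalings (adjusted p from 0.0767 to 0.711). Gene 5699, a DAHP synthase by number, averaged 140 FPKM in the S group and 166 FPKM in the C group and was not called (log2 fold change -0.24, SE 0.11, adjusted p = 0.137). It was called lower after centring (adjusted p = 0.0101) but not under quantile normalization (0.0656). The DAHP synthase of gene 10927 averaged 110 FPKM in the S group and 74.5 FPKM in the C group and was not called (log2 fold change 0.61, SE 0.23, adjusted p = 0.0754). Gene 12051, an aromatic aminotransferase and the most abundant gene of the aromatic map, had 254, 255 and 249 FPKM in the S group, against 316, 319 and 283 FPKM in the C group, and fell (log2 fold change -0.27, SE 0.08, adjusted p = 0.0415). This held after centring (adjusted p = 0.0072), was lost under quantile normalization (0.0544), and failed without any of S1, S2, S3, C1 and C2 (up to 0.158).

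Among the members that use or oxidize amino acids or share their maps by enzyme number, 1 of 13 rose and 2 fell. Over all tested genes the shares were 19.9% and 3.03%. Gene 1243, a choline dehydrogenase by number, had 329.6, 307 and 329 FPKM in the S group, against 405, 416 and 421 FPKM in the C group, and fell (log2 fold change -0.36, SE 0.08, adjusted p = 0.011). Gene 4463, described as a glucose oxidase, had 241, 269 and 275 FPKM in the S group, against 435, 346 and 322 FPKM in the C group, and fell (log2 fold change -0.48, SE 0.12, adjusted p = 0.018). Both were called lower under every scaling, gene 1243 losing its call without S2 (adjusted p = 0.0576) and gene 4463 without S1 (0.0541). Both belong to the GMC oxidoreductases, which act on alcohols and sugars. Gene 4213, a sarcosine or pipecolate oxidase by number, had 18.5, 18.5 and 19.6 FPKM in the S group, against 14.2, 13.5 and 14.9 FPKM in the C group, and rose (log2 fold change 0.41, SE 0.13, adjusted p = 0.0492), a call lost under both other scalings (adjusted p = 0.431 and 0.733) and without S1, S2, S3, C1 or C2 (up to 0.168). The most abundant gene of the glycine, serine and threonine map was gene 9507, 5-aminolevulinate synthase, which commits glycine to heme. It had 591, 565 and 567 FPKM in the S group, against 554.5, 592 and 654 FPKM in the C group, and was not called (log2 fold change -0.06, SE 0.08, adjusted p = 0.623). Its groups overlapped, and its sign turned without C3 (log2 fold change 0.0032).

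Counted by map, in which a gene of several maps counts in each, the branched-chain map had the highest share called higher, 5 of 9, and the arginine map the highest share called lower, 4 of 18, beside 19.9% higher and 3.03% lower over all tested genes. The glycine, serine and threonine map had 9 higher and 3 lower of 29, the aromatic map 4 and 2 of 17, the lysine map 3 and 1 of 13, and the histidine map 3 and 0 of 11. Cysteine and methionine had 5 higher and 3 lower of 33, and alanine, aspartate and glutamate 4 and 2 of 23. These counts turned with the scaling. After centring, where 7.26% of all tested genes were higher and 15.3% lower, the arginine map had 2 higher and 8 lower, the alanine, aspartate and glutamate map 3 and 7, the glycine, serine and threonine map 3 and 5, the cysteine and methionine map 1 and 7, and the aromatic map 1 and 5. The branched-chain map then had 0 higher and 1 lower, the lysine map 0 and 3, and the histidine map 0 and 1. By function, the 71 tested genes of synthesis steps had 23 higher and 7 lower with a median log2 fold change of 0.31, and the 36 genes of other uses had 5 and 3 with a median of 0.07. After centring the synthesis genes had 5 higher and 14 lower (median 0.03), and the other genes 1 and 10 (median -0.21). Under quantile normalization, with 6.61% of all tested genes higher and 8.47% lower, they had 3 and 9 (median 0.06), and 1 and 7 (median -0.19). The difference between the 2 classes was not tested.

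In the FPKM as deposited, the direction of a member went with its abundance, as it did for the whole table. Of the 15 members in the highest decile of genes by mean FPKM, 3 were called higher and 7 lower with a median log2 fold change of -0.23. All 612 genes of that decile had 62 higher and 113 lower with a median of -0.07. The 7 included both called glutamine synthetases, methionine synthase, tryptophan synthase and the aromatic aminotransferase. The 3 that rose were ketol-acid reductoisomerase, glycine hydroxymethyltransferase and methionine adenosyltransferase. Arginase and ornithine carbamoyltransferase fell at moderate levels, at 32.3 and 30.3 FPKM on average in the S group, against 52.5 and 47.1 FPKM in the C group. Under quantile normalization the median over all genes was -0.04 in the lowest decile and -0.03 in the highest, where 50 genes were higher and 70 lower, and the members of the highest decile had 1 higher and 4 lower with a median of -0.19. After centring these members had 0 higher and 8 lower (median -0.50), and all genes of the decile 11 and 274 (median -0.34).

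**Figure D4:**
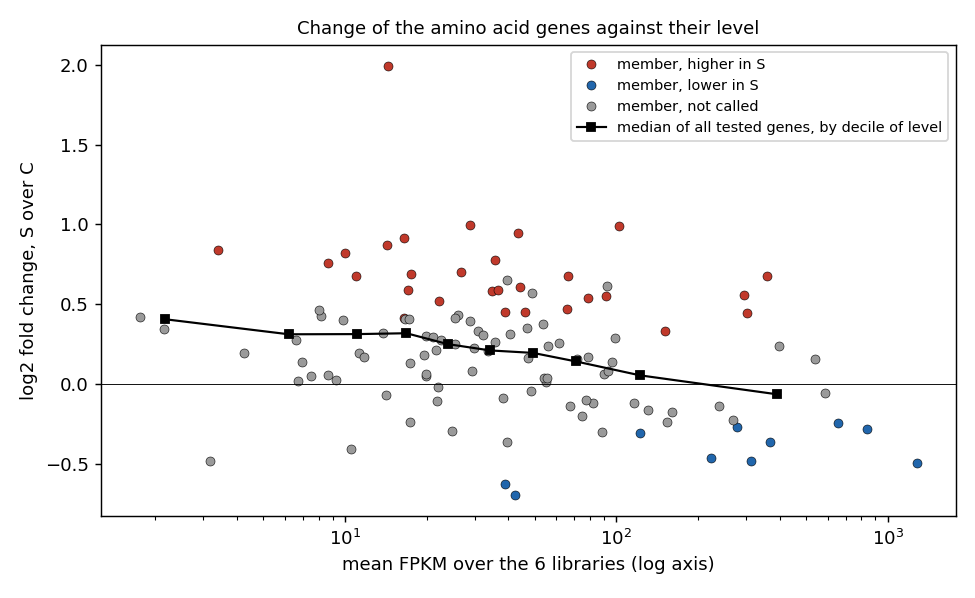
Log2 fold change (S over C) of each tested member against its mean FPKM over the 6 libraries on a log axis, with the median of all tested genes in each decile of abundance as squares. In the top decile 7 members are blue (lower in S), and the median of all genes there is -0.07.

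Several steps are annotated to more than 1 gene, and the balance within such sets can be compared library by library, which takes out a multiplier common to all genes of a library but not a shift that depends on abundance. Among the members, 21 enzyme numbers were shared by 48 genes and gave 34 pairs. In 14 pairs the ratio of FPKM did not overlap between the groups, but no pair passed a two-sided exact permutation test with Benjamini-Hochberg adjustment over the 34 pairs (smallest adjusted p = 0.243), since the smallest raw p is 0.1. Pairs that share a gene are not independent. The share of such pairs among other genes was not computed, so the 14 of 34 have no background to be read against. The 5 pairs with the largest change among those 14, picked after their values were seen, are given here. The largest was between the phosphoglycerate dehydrogenases, where gene 9255 over gene 10657 was 1.70, 1.09 and 0.561 in the S group, against 2.68, 2.92 and 2.05 in the C group, a fold of 0.402, with the S libraries widely scattered. The ratio of aspartate aminotransferase gene 1591 to gene 6023 was 0.0521, 0.0498 and 0.0522 in the S group, against 0.0205, 0.0252 and 0.0293 in the C group, and was 2.08-fold higher with SA. The ratio of branched-chain aminotransferase gene 4905 to gene 11579 was 4.39, 3.72 and 3.01 in the S group, against 6.02, 5.92 and 6.39 in the C group, a fold of 0.6. Gene 3583 over gene 5035, both with the number of gamma-glutamylcysteine synthetase, was 1.47, 1.81 and 1.83 in the S group, against 1.09, 1.02 and 1.04 in the C group, 1.62-fold higher. For glutamine synthetase, gene 7573 over gene 11121 was 59.3, 44.4 and 51.5 in the S group, against 74.2, 76.0 and 99.5 in the C group, a fold of 0.622. Under quantile normalization, tried after the data were seen, the folds of these 5 pairs were 0.408, 1.6, 0.673, 1.68 and 0.839, so the glutamine synthetase ratio moved most towards 1. Reads of near-identical copies may have been split between such genes, so single values within a set carry that uncertainty.

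**Figure D5:**
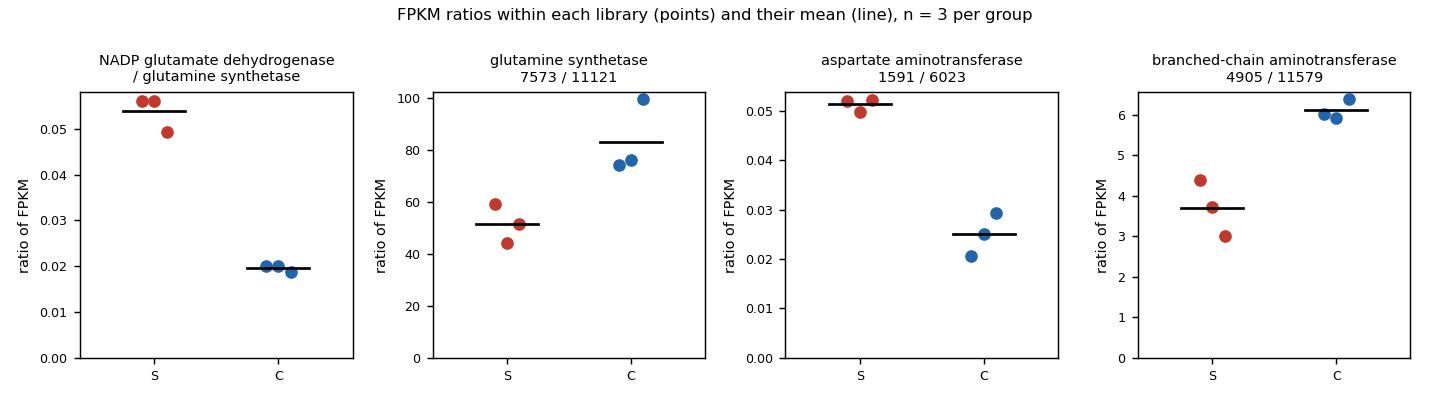
Ratio of FPKM within each library (points) with the group mean (line), S at left and C at right, for 4 pairs of genes. The ratio of NADP glutamate dehydrogenase to glutamine synthetase lay between 0.0493 and 0.0561 in S and between 0.0188 and 0.0202 in C.

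Around the members, other amino acid routes also had calls in both directions. Proline is made from glutamate in steps that KEGG places in a separate map, and its 3 annotated genes were called higher: glutamate 5-kinase (gene 6627, log2 fold change 0.44, SE 0.13, adjusted p = 0.0379), glutamate-5-semialdehyde dehydrogenase (gene 2471, log2 fold change 0.71, SE 0.14, adjusted p = 0.00792) and pyrroline-5-carboxylate reductase (gene 3065, log2 fold change 0.52, SE 0.13, adjusted p = 0.019). After centring gene 2471 alone kept its call (adjusted p = 0.0293), and under quantile normalization none did. In the degradation and arginine and proline maps as a whole 14 of 75 genes were higher and 2 lower, beside 19.9% and 3.03% of all tested genes, and after centring 4 were higher and 11 lower. Sulfate assimilation supplies the sulfide for cysteine. Sulfate adenylyltransferase, gene 5967, its first step, had 5.30, 6.33 and 6.83 FPKM in the S group, against 1.55, 3.03 and 2.23 FPKM in the C group, and rose (log2 fold change 1.44, SE 0.26, adjusted p = 0.00635), while gene 9327, a sulfite reductase by number, had 438, 411 and 398 FPKM in the S group, against 544, 556 and 513 FPKM in the C group, and fell (log2 fold change -0.37, SE 0.08, adjusted p = 0.0108), both also under centring and quantile normalization (adjusted p up to 0.0305). Gene 3681, described as the beta subunit of sulfite reductase and with the same number, had 134, 132 and 154 FPKM in the S group, against 143, 147 and 138 FPKM in the C group, and was not called (log2 fold change -0.03, SE 0.10, adjusted p = 0.868), although it was called lower after centring (adjusted p = 0.0425). Of the 9 sulfur genes tested 2 were higher and 1 lower, and after centring 1 and 2. The tRNA charging map had 10 of 39 genes higher and 1 lower, and the folate and vitamin B6 maps, which hold cofactors of these enzymes, had 8 of 20 higher and 1 lower. After centring the tRNA charging map had 3 higher and 4 lower, and the folate and vitamin B6 maps 1 and 1.

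Descriptions were searched for Gcn2, Gcn4, Cpc1, Leu3, Lys14 and cross-pathway control, and of these only Gcn2 was found by name. The search also returned a Gcn20-like protein, whose name holds the letters of Gcn2. The eIF2-alpha kinase GCN2, gene 1017, had 24.2, 24.7 and 22.0 FPKM in the S group, against 27.0, 24.9 and 20.3 FPKM in the C group, with overlapping groups, and was not called (log2 fold change -0.02, SE 0.14, adjusted p = 0.94). The Gcn20-like protein, gene 55, which assists Gcn2 in *S. cerevisiae*, had 77.8, 85.5 and 83.8 FPKM in the S group, against 70.1, 67.5 and 54.1 FPKM in the C group, and did not pass (log2 fold change 0.37, SE 0.12, adjusted p = 0.0513).

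A few members lie near each other. Members were on 12 of the 70 contigs, and 7 pairs were less than 10000 bases apart. On contig LN483124.1 aspartate aminotransferase genes 1591 and 1595 and the DAHP synthase of gene 1599 lay close together, and genes 1591 and 1599 rose. On contig LN483345.1 threonine ammonia-lyase (gene 11849) and glycine hydroxymethyltransferase (gene 11855) were 5414 bases apart on opposite strands and both rose. Members resembled the other genes in structure, with a median of 8 exons and a transcript length of 1404 bases, against 7 exons and 1323 bases over the whole table. Coordinates are those of the deposited table, and the study names more than 1 assembly, so the build was not settled.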

How the data were processed

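Poly(A) RNA from 6 samples of *P. rhodozyma* (3 S, 3 C) was sequenced as paired-end reads. Cleaning by fastp, alignment by HISAT2 and quantification by StringTie were done by the authors. Which versions they ran is not given here in any source used. The deposited table holds 1 FPKM value per gene and library, normalized by the authors for transcript length and library size, beside their own fold, log2, p and q columns, which were not used. FPKM values are not counts. Low values were not whole multiples of a common step (at best 16% to 23.5% of 200 low values per library within 0.05). Reads per gene were therefore not recovered, and no interval from counts is given. Whether counting used strand is not stated.

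Values were tested as log2(FPKM + 0.1) for 6113 genes, those averaging 0.5 FPKM or more over the libraries, with limma 3.58.1 in R 4.3.3 (moderated test with a mean-variance trend, two-sided, no covariate) and Benjamini-Hochberg adjustment over all tested genes, called at an adjusted p under 0.05. Fold changes are on this scale, which understates those of low genes. The authors' edgeR test needs counts, so limma was used in its place. The procedure was tested on simulated data with independent noise. These held no shift of whole libraries and none with abundance, so the test cannot tell how such shifts act on the calls. Figures were drawn with matplotlib 3.10.9 under Python 3.11.15.

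The members, roles and lists were chosen with earlier results of these data known. Values in every library are given for the 30 called members of smallest adjusted p and the most abundant member of each map, and for further called members and pathway steps chosen after their values were seen. Alternatives were pseudocounts of 1 and 0.01, a limit of 1 FPKM or none on low values, quantile normalization, library values centred on their medians, a replicate block, no trend, all genes of the 8 maps, and leaving out each library. Replicate numbers were shared by the groups, but the deviations of same-numbered libraries correlated at -0.017, 0.162 and -0.003, so the numbers were not taken to pair libraries.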

Additional observations from a re-analysis of the deposited data

How the results depend on the processing

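Scaling and single libraries decided most calls, and the cause was not tested. The 29 members called higher were 6 after centring and 5 under quantile normalization. Leaving out 1 library gave 10 to 29, with the fewest without S2. The 10 members called lower were 25 after centring, 16 under quantile normalization, 4 without the mean-variance trend and 4 to 12 with 1 library left out. With the replicate number as a block 26 were higher and 6 lower, of which 24 and 6 were calls of the fit without it. The median log2 fold change of 0.23 was -0.046 after centring, -0.027 under quantile normalization and 0.15 to 0.25 with 1 library left out. Over all tested genes, 1218 higher and 185 lower became 444 and 937 after centring, and 404 and 518 under quantile normalization. Leaving out 1 library gave 501 to 1338 higher and 67 to 293 lower.

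The alternatives were listed for 68 of the genes named with a test, and 11 of the 68 kept direction and call under all of them. Among the 68, centring turned the sign of 6 that were not called: genes 4803 (-0.12), 5275 (-0.12), 11895 (-0.038), 7877 (-0.21), 11121 (-0.092) and 11297 (-0.24). Quantile normalization turned that of genes 5275 (-0.023), 7877 (-0.10), 11121 (-0.14) and 11297 (-0.18). Gene 1017 turned without S3 (0.033), C1 (0.070) or C2 (0.012), with a range of -0.13 to 0.070 with 1 library left out, gene 9507 without C3 (0.0032), and gene 3681 without S1 or S2 (-0.10 to 0.013 with 1 library left out). The 6 ratios of gene pairs kept their direction under quantile normalization and with any library left out, both tried after the data were seen. The changes of pseudocount and low limit changed at most 2 of the named calls each. The paper gives a range of valid reads per sample, but reads per gene were not recovered, so the effect of depth on low genes was not judged.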
